A study of Mus musculus with 77 samples.

Results

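Solute carriers are membrane proteins that move sugars, amino acids, organic acids, metals, vitamins, nucleotides and ions across the plasma membrane and across the membranes of organelles. They are grouped in numbered families by sequence, and the family usually tells the kind of substrate. In bone marrow, dividing progenitors are known to depend on carriers that bring in amino acids, folate and iron, and mature granulocytes on glucose uptake and glycolysis.

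The genes described here are the 214 of 10096 genes in a deposited enhancer table whose symbol begins with Slc followed by a number or by o, and they hold 925 of 44002 enhancers. Slc4a1ap, Slc7a6os and Slc9a3r1 match this rule by their symbol although they are neighbours or partners of carriers, and they were kept. The transporter groups below go by family number alone. Slc7a6os is therefore counted with the amino acid and peptide carriers, and Slc4a1ap and Slc9a3r1 with the inorganic ion carriers. The members come from 46 families on 20 chromosomes, with a median of 3 enhancers per gene, against 2 for all genes, and 70 members have 1. Slc4a1, the anion exchanger of red cells, and Slc28a2 were looked for and have no row in the table used here.

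The cells were sorted from mouse bone marrow: preGM from CEBPA KO mice, and wild type LSK, preGM, GMP and granulocytes. LSK are lineage-negative cells with Sca-1 and Kit, preGM are lineage-negative, Sca-1-negative, Kit-positive cells without CD150 and CD105, GMP carry the Fc gamma receptors II and III, and granulocytes carry Mac1 and Gr-1. The ages of the mice and what drove the deletion are not given in the sources used here. Each group has 1 deposited value per enhancer. The assays are H3K27ac, an acetylation found on active enhancers, H3K4me1, a methylation that poised enhancers carry too, and PU.1, a myeloid transcription factor with no granulocyte column. CEBPA itself has a column for wild type preGM. The labels list 2 libraries for each of these groups, which the table does not separate, so no value has a replicate error and no difference below was tested. The table also gives each gene an expression value in the 4 stages, and in a separately scaled pair of columns for KO and wild type preGM. Whether these come from the listed RNA libraries is not given, and their scale is known only from the values, so they are called expression values. The 2 preGM columns correlate across all genes with a Pearson r of 0.783, and they were not compared with each other.

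Each gene was given the mean signal of its enhancers, and a difference is the log2 ratio of that mean between groups after adding a small constant and subtracting the median log2 ratio of all genes. A gene was counted as higher or lower when this ratio reached 2-fold. Levels are set side by side within a gene and not between genes, since it is not given whether the signal is per base. In sorted populations, fewer cells of a type and less RNA per cell cannot be told apart.

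Cebpa itself had an expression value of 48.3 in KO preGM and 208 in wild type preGM. The summed expression of 9 granulocyte genes was 352 in LSK, 1917 in preGM, 4512 in GMP and 57814 in granulocytes. That of 5 monocyte genes was 1515, 7688, 10736 and 2277 in the same order. In preGM the granulocyte sum was 378 in KO and 1585 in wild type, and the monocyte sum 323 in KO and 1616 in wild type. The sum of 4 GMP and primary granule genes was 4714 in KO and 9107 in wild type preGM, and 3318 in granulocytes and 38358 in GMP. In preGM most of it was Mpo, with 4372 in KO and 6433 in wild type. Ctsg had 190 and 2096, Prtn3 99.2 and 366, and Elane 53.1 and 213. The sum of 7 stem and multipotent cell genes was 2601 in KO and 3508 in wild type, and 508 in granulocytes and 3347 in GMP. The other lists are in the table only in part. The 3 of 6 T and NK cell genes summed to 1819 in KO and 1254 in wild type preGM. Most of this was Nkg7, with 1474 and 1111, and in the stage columns Nkg7 was highest in GMP, at 1785. Tcf7 had 245 in KO and 74.1 in wild type, and Gata3 100 and 68.7. The 5 of 6 megakaryocyte genes summed to 792 in KO and 681 in wild type. The 3 of 8 erythroid genes summed to 729 in KO and 666 in wild type, and the 2 of 4 dendritic cell genes to 182 in KO and 594 in wild type. Of these 2, Flt3, which is also in the stem and multipotent list, had 118 in KO and 536 in wild type. The other, Itgax, had 64 in KO and 58.1 in wild type. The 2 of 5 B cell genes summed to 92.2 in KO and 86.5 in wild type, and the single listed gene in the table, of 5, for mast cells, basophils or eosinophils had 34.8 in KO and 46.01 in wild type. No marker is at 0, since these columns hold no 0, and the part of such cells in the differences below was not tested.

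Of the steps along the path, that from GMP to granulocytes had the most members past 2-fold in H3K27ac and in expression. Single carriers of glucose, peptides and taurine were among those higher in granulocytes in both measures. Single carriers of lactate, folate, glutamine and mitochondrial ADP and ATP, and carriers of zinc, were among those lower in both. The lactate carrier lower in both was Slc16a1, while Slc16a3, which carries lactate too, had higher H3K27ac, with a log2 ratio of 1.73. H3K27ac was at least 2-fold higher in granulocytes at 18 members, where 7.58% of all genes were, and lower at 21, where 7.72% were. Expression was higher for 20 members against a background of 12.2%, and lower for 36 against 17.7%. With an added constant 4 times larger the H3K27ac count of both directions was 10 in place of 39, with 1.54% of all genes higher and 2.22% lower. The shares lie near the background, so what follows is about single carriers and not about the gene family.

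Both measures were higher in granulocytes for 7 members: Slc15a3, Slc22a15, Slc37a3, Slc6a6, Slc2a3, Slc11a1 and Slc25a24. Both were lower for 11: Slc39a10, Slc16a1, Slc35d1, Slc7a6, Slc19a1, Slc25a4, Slc38a1, Slc25a15, Slc39a8, Slc43a3 and Slc5a3. Of these, Slc39a10, Slc7a6, Slc25a4, Slc25a15 and Slc43a3 have 1 enhancer each, and Slc35d1, Slc19a1 and Slc39a8 have 2. The 7 higher members have from 3 to 17. At Slc25a4 the granulocyte H3K27ac, 0.539, lies below the added constant of 0.7. Slc31a1 had higher H3K27ac and lower expression. Of the members with higher H3K27ac, 38.9% also had higher expression, against 39.7% of all such genes, and of those with lower H3K27ac 52.4% had lower expression, against 48.01%. Across the 214 members the 2 ratios had a Spearman rho of 0.47, and across all genes of 0.43; genes are not independent replicates, and this is a description.

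**Figure D1:**
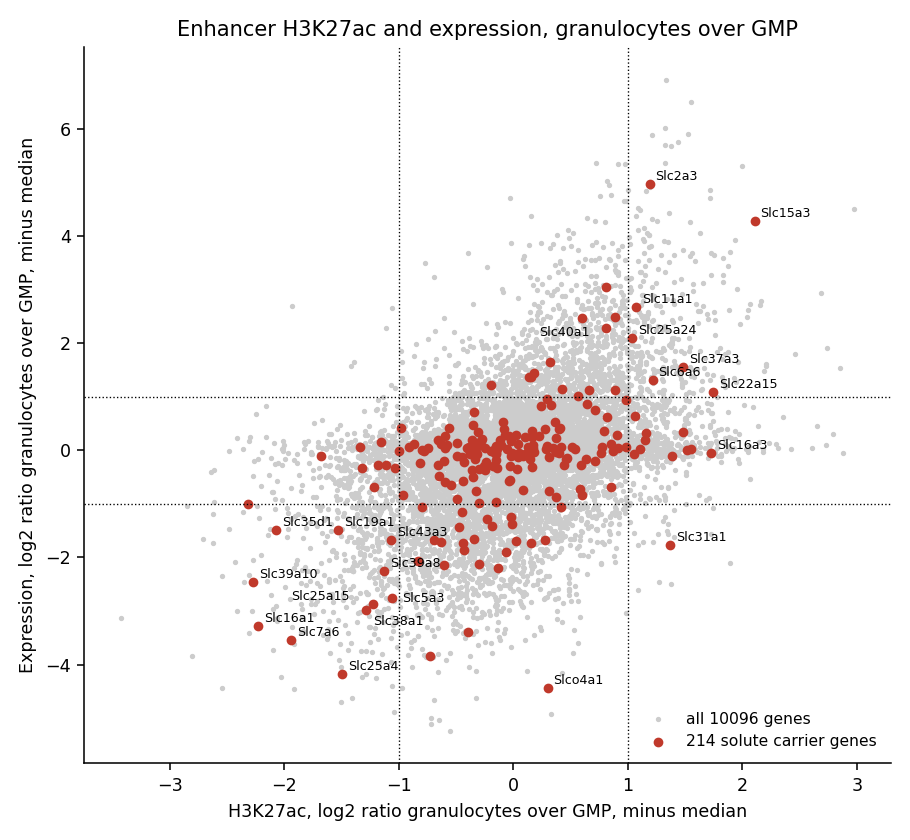
H3K27ac log2 ratio (x axis) against expression log2 ratio (y axis), granulocytes over GMP, each minus the median of all genes, for all 10096 genes in grey and 214 solute carrier genes in red, with dotted lines at 2-fold. The 7 members higher in both lie at the upper right, the 11 lower in both at the lower left, and Slco4a1 stands low in expression with an H3K27ac ratio of 0.301.

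The promoters of 3 of these 18 genes are shown because their expression and H3K27ac moved together, upward for Slc22a15 and Slc11a1 and downward for Slc16a1. They are RefSeq windows of build GRCm38.p6, from 250 bases before to 50 after the start, read 5′ to 3′ on the gene's strand, and were not matched to the table's enhancers, which are in build mm9. Capitals mark GAGGAA, the core of PU.1 motifs, and CACGTG, an E-box, on either strand. TTGCNNAA, a C/EBP pattern, was also searched and is in none of the 3. The windows are chr3:101924404-101924703 on the minus strand for Slc22a15, chr1:74374953-74375252 on the plus strand for Slc11a1 and chr3:104638414-104638713 on the plus strand for Slc16a1.
Slc22a15: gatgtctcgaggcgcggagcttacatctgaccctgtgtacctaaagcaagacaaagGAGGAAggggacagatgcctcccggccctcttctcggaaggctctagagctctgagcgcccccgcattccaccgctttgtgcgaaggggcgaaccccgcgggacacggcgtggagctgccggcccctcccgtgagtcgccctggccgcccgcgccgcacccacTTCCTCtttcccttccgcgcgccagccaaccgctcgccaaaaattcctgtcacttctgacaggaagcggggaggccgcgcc
Slc11a1: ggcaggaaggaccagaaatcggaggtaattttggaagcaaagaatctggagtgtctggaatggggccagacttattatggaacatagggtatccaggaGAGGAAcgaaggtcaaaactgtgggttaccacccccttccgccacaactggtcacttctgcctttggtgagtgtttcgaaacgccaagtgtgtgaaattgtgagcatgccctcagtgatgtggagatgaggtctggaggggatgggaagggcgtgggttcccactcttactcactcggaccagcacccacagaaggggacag
Slc16a1: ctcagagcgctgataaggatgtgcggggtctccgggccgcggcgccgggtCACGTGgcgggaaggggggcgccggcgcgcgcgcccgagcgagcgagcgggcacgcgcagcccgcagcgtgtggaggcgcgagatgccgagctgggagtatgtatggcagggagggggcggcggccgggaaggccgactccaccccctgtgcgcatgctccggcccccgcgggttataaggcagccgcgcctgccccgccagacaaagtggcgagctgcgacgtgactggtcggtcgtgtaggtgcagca

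GAGGAA occurs 2 times in the Slc22a15 window and 1 time in that of Slc11a1, and it is in 28.3% of all windows and 20.8% of those of solute carriers. CACGTG occurs 1 time in the Slc16a1 window and is in 7.15% of all windows and 12.7% of solute carrier windows. TTGCNNAA is in 10.8% of all windows and 6.33% of solute carrier windows. The longer GAGGAAGT, which contains the core, occurs 1 time in the Slc22a15 window and is in 3.202% of all. A looser C/EBP pattern, TTNCNNAA, was searched as well; it occurs 3 times in the Slc11a1 window and in neither other, and is in 40.7% of all windows. The 3 genes and the 5 patterns were chosen after values and matches had been seen, and a match is a description of the letters only.

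Among sugar carriers, Slc2a3, which encodes the glucose transporter GLUT3, had expression values of 726, 602, 177 and 6425 in LSK, preGM, GMP and granulocytes. Its level was lowest in GMP and highest in granulocytes, with a log2 ratio of 4.97 between granulocytes and GMP, the highest of all members. H3K27ac over its 9 enhancers was 0.769, 0.602, 0.5697 and 2.22 in the same order, and all 9 lay above the median ratio of all enhancers. Of these, 5 were at least 2-fold higher, where 10.8% of all enhancers were higher and 8.24% lower in granulocytes than in GMP. Enhancers of 1 gene are not replicates, here or below. By the deposited stage labels, 19.4% of solute carrier enhancers and 21.2% of all are listed for granulocytes only. For GMP only the shares are 17.4% and 17.2%. Such enhancers may be in the table through the stage where they are high, and they were not set apart in these counts. Slc2a1, which encodes the widely expressed GLUT1, had 256, 368, 246 and 236 in expression over the 4 stages. Its enhancers split: the pair at chr4:118799635-118799789 and chr4:118799966-118800066 (mm9) had H3K27ac of 7.54 and 5.503 in granulocytes, against 1.61 and 1.43 in GMP, and the other 3 were no higher in granulocytes. Against LSK, its mean H3K27ac over 5 enhancers was past 2-fold, with 1.83 in LSK and 7.13 in granulocytes, a log2 ratio of 1.12. Slc37a3, of a family related to sugar phosphate exchangers, had expression of 21.6, 18.2, 19.6 and 127, low until granulocytes. Slc5a3, a sodium-coupled inositol carrier, went the other way with 301, 331, 344 and 13.9. Of 23 sugar carriers, 3 had higher and 1 lower expression in granulocytes than in GMP, against 12.2% and 17.7% of all genes. The median expression ratio of the 23 was 0.051. Their H3K27ac was higher at 3 and lower at 1, against 7.58% and 7.72% of all genes.

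Among amino acid and peptide carriers, Slc15a3, a peptide and histidine carrier of endosomes and lysosomes, had expression of 20.004, 16.8, 16.8 and 1017 over LSK, preGM, GMP and granulocytes. Granulocytes stood alone, and the log2 ratio over GMP was 4.29. Its mean H3K27ac was 1.297, 1.91, 2.47 and 13.1, and each of its 3 enhancers was higher in granulocytes, that at chr19:10916327-10916479 (mm9) with 19.2 against 4.92 in GMP. Slc6a6, the taurine transporter, had expression of 509.8, 422, 390.4 and 983 and H3K27ac of 1.402, 1.89, 2.32 and 6.37. Of its 17 enhancers, 12 were at least 2-fold higher in granulocytes and 1 lower, against 10.8% and 8.24% of all enhancers.

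Slc7a6, which exchanges cationic for neutral amino acids in a complex with Slc3a2, had expression of 354, 639.6, 754 and 25.3 and H3K27ac of 4.62, 4.79, 14.8 and 3.36, both highest in GMP. Slc38a1, a sodium-coupled glutamine carrier, had expression of 871, 1568, 1548 and 152. Slc7a1, the arginine carrier CAT1, had 1249.7, 1729, 2708 and 209 in expression, while its H3K27ac ratio of -0.395 did not reach 2-fold. Slc7a5, the large neutral amino acid carrier LAT1, had 154, 195, 242 and 45.1, and its partner Slc3a2 had 748, 634, 434 and 321 with a ratio of -0.32, short of 2-fold. Slc43a3, a purine nucleobase carrier placed here by its family, had 321, 364, 444 and 104. In this group of 35, 2 had higher and 8 lower expression in granulocytes than in GMP, where 12.2% of all genes were higher and 17.7% lower. Slc7a6os, kept by its symbol, is among the 8. H3K27ac was higher at 3 and lower at 6, against 7.58% and 7.72%.

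The monocarboxylate carriers Slc16a1 and Slc16a3, which encode MCT1 and MCT4, carry lactate and pyruvate. Slc16a1 had expression of 279, 512, 1048 and 67.3 and H3K27ac of 1.88, 2.402, 7.66 and 1.096 over the 4 stages, with both peaking in GMP. Its enhancer at chr3:104442317-104442695 (mm9) had H3K27ac of 1.66 in granulocytes and 22.03 in GMP. Slc16a3 had H3K27ac of 0.801, 0.618, 0.9596 and 4.84. At least 2-fold higher in granulocytes than in GMP were 9 of its 11 enhancers, against 10.8% of all enhancers. Its expression was 18.6, 15.4, 21.6 and 17.04, below the added constant of 40 in every stage. In the separately scaled preGM pair it had 112 in KO and 111 in wild type, and the sets cannot be put on one scale. The 15 members grouped as mono- and dicarboxylate carriers by family were 12 of Slc16 and 3 of Slc13. Of these 15, 0 had higher and 3 lower expression in granulocytes than in GMP, against 12.2% and 17.7% of all genes. Their H3K27ac was higher at 2 and lower at 1, against 7.58% and 7.72%.

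**Figure D2:**
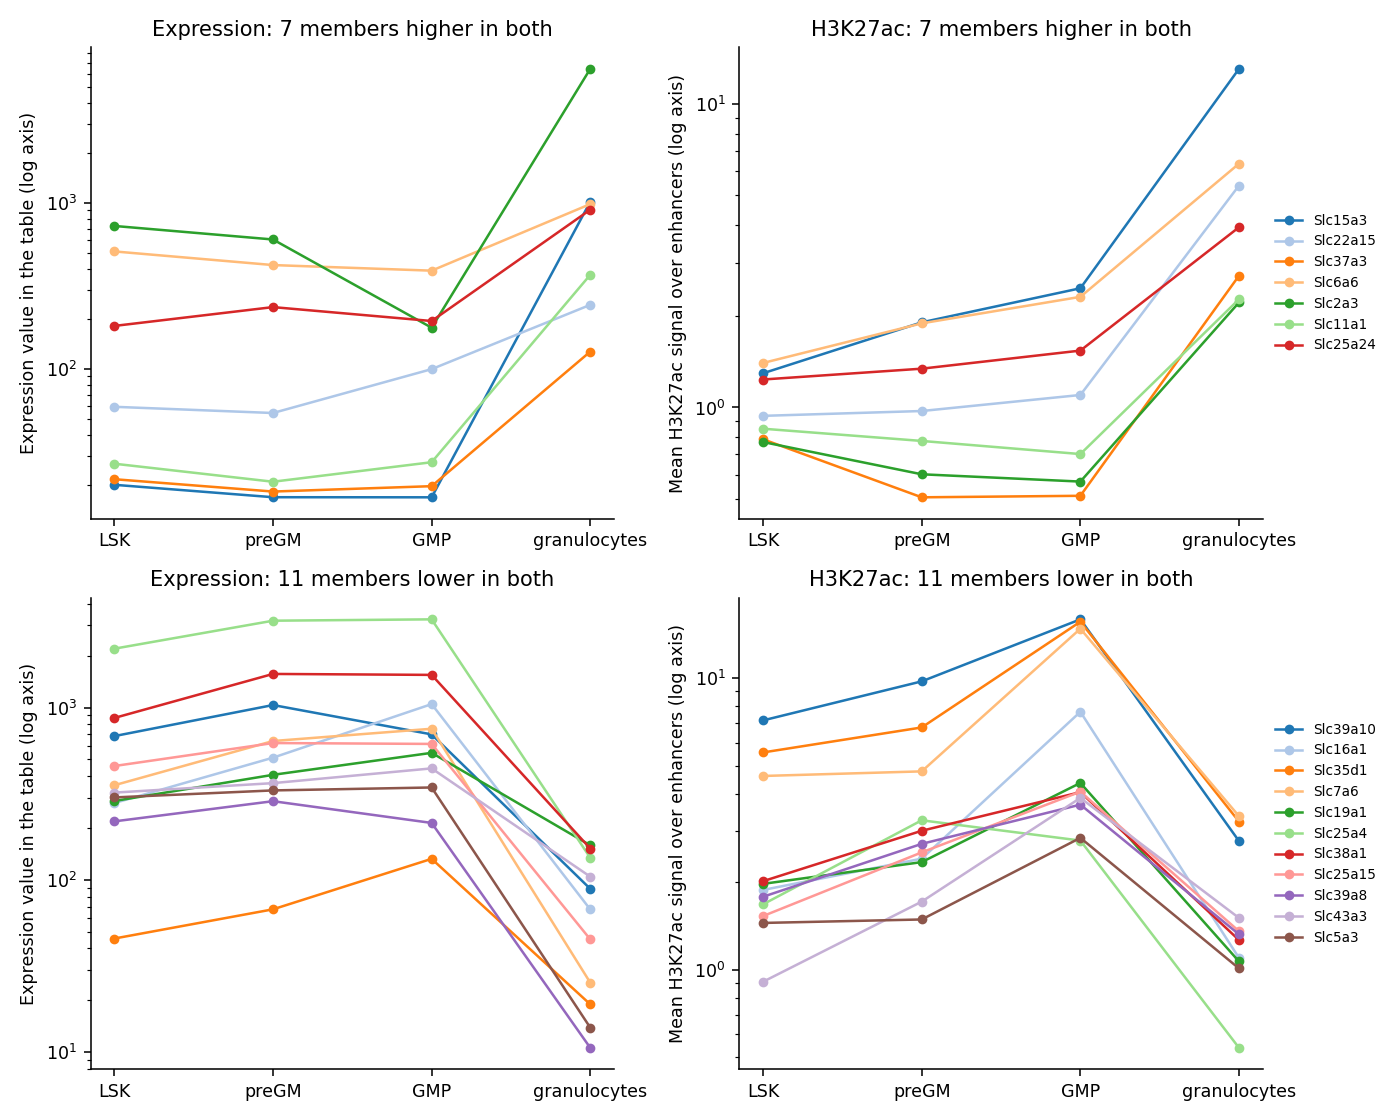
Expression values (left, log axis) and mean H3K27ac signal over enhancers (right, log axis) in LSK, preGM, GMP and granulocytes for the 7 members higher in both (top) and the 11 lower in both (bottom) in granulocytes than in GMP; each line is 1 gene and each point 1 deposited value or, for H3K27ac, the mean of a gene's deposited values. Slc2a3 reaches 6425 in granulocytes, and Slc16a1 reaches its highest value, 1048, in GMP.

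Metal carriers moved in both directions. Slc11a1, which moves divalent metals out of the phagosome of macrophages and neutrophils, had expression of 26.8, 20.9, 27.4 and 369 over LSK, preGM, GMP and granulocytes, and H3K27ac of 0.851, 0.776, 0.702 and 2.27. Slc40a1, the iron exporter ferroportin, increased at every step, with 23.2, 148, 476 and 2351. Its log2 ratio between granulocytes and LSK was 5.33, although its single assigned enhancer had H3K27ac of only 0.839, 0.238, 0.366 and 1.18. The copper carriers parted: Slc31a2 had expression of 41.6, 37.3, 69.1 and 540.5, and Slc31a1, the high-affinity importer CTR1, had 74.4, 144, 241 and 38.7. At Slc31a1, H3K27ac was 2.299 in granulocytes and 0.452 in GMP, at 1 enhancer.

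Of the Slc39 family, most of whose members import zinc, Slc39a6, Slc39a8 and Slc39a10 were lower in granulocytes than in GMP, and Slc39a11 was higher, with an expression ratio of 1.36. Slc39a6 had expression of 1314, 2161, 2018 and 97.3, Slc39a8 of 219, 286, 214 and 10.6 and Slc39a10 of 683, 1035, 699 and 88.7. At the single enhancer of Slc39a10, H3K27ac was 7.16, 9.74, 15.9 and 2.76, while H3K4me1 was 1.18, 1.46, 1.498 and 6.899, so the marks moved in opposite directions in granulocytes. Slc41a1, a magnesium carrier, had the lowest H3K27ac ratio of any member, -2.32, with an expression ratio of -0.995, just short of 2-fold. Of 27 metal and haem carriers, 5 had higher and 5 lower expression in granulocytes than in GMP, against 12.2% and 17.7% of all genes. In H3K27ac 2 were higher and 3 lower, against 7.58% and 7.72%.

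Among mitochondrial carriers, Slc25a4, the ADP/ATP exchanger ANT1, had expression of 2197, 3193, 3252 and 134, and Slc25a15, the ornithine carrier, of 458, 623, 615 and 45.1. Slc25a24, an ATP-magnesium and phosphate carrier, was higher in granulocytes with 181, 235, 194 and 909.8, as was Slc25a37, the iron importer mitoferrin-1, with 281, 287, 278 and 741. Slc25a33 and Slc25a20 had higher H3K27ac in granulocytes, with ratios of 1.55 and 1.49, and expression ratios of 0.033 and 0.34. Of the 28, 2 had higher and 5 lower expression in granulocytes than in GMP, against 12.2% and 17.7% of all genes. In H3K27ac 4 were higher and 4 lower, against 7.58% and 7.72%.

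Among 10 nucleoside and vitamin carriers 0 had higher and 2 lower expression in granulocytes than in GMP, among 8 phosphate and vesicular carriers 0 and 1, and among 16 nucleotide sugar carriers 2 and 4. The shares of all genes were 12.2% higher and 17.7% lower. In H3K27ac the counts were 0 and 1, 1 and 0, and 0 and 2 in the same order, against 7.58% and 7.72% of all genes. Slc19a1, the reduced folate carrier, had expression of 287, 407, 546 and 159 and H3K27ac of 1.97, 2.34, 4.37 and 1.07. Slc20a1, a sodium-phosphate carrier, had 399.5, 500.1, 604 and 98.3 in expression with an H3K27ac ratio of -0.61. Slc35d1, a nucleotide sugar carrier of the endoplasmic reticulum, had 45.7, 67.5, 132 and 18.9, and Slc35a5, of the same superfamily, had 70.96, 122, 303 and 982 and was highest in granulocytes. Slc35d3 was highest in LSK, with 306, 112, 15.4 and 3.17.

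Among carriers of organic ions and lipids, Slco4a1, an organic anion transporter, had the lowest expression ratio of all members. Its values were 418, 950.1, 1944 and 46.9, a log2 ratio of -4.44 between granulocytes and GMP. None of its 22 enhancers differed 2-fold in H3K27ac, where 10.8% of all enhancers were higher and 8.24% lower. The mean of the 22 was 2.09 in granulocytes and 1.54 in GMP. Slco4c1, of the same family, had expression of 8.45, 8.42, 12.1 and 371, and the choline carrier Slc44a1 of 221, 129, 108 and 739. Slc22a15, an organic ion carrier, had H3K27ac of 0.938, 0.973, 1.099 and 5.39, and expression of 59.04, 54.2, 99.6 and 243. Of its 16 enhancers, 12 were at least 2-fold higher in H3K27ac in granulocytes than in GMP, against 10.8% of all enhancers. Slc22a4, which carries ergothioneine, had H3K27ac of 0.836, 0.813, 5.98 and 2.77, highest in GMP, and expression of 12.8, 15.2, 57.9 and 12.3. In all, 3 of 25 carriers of organic ions and lipids had higher and 5 lower expression in granulocytes than in GMP, and 2 had higher and 2 lower H3K27ac. Of 27 inorganic ion carriers, 3 had higher and 2 lower expression, and 1 had higher and 1 lower H3K27ac. The shares of all genes were 12.2% higher and 17.7% lower in expression, and 7.58% higher and 7.72% lower in H3K27ac.

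**Figure D3:**
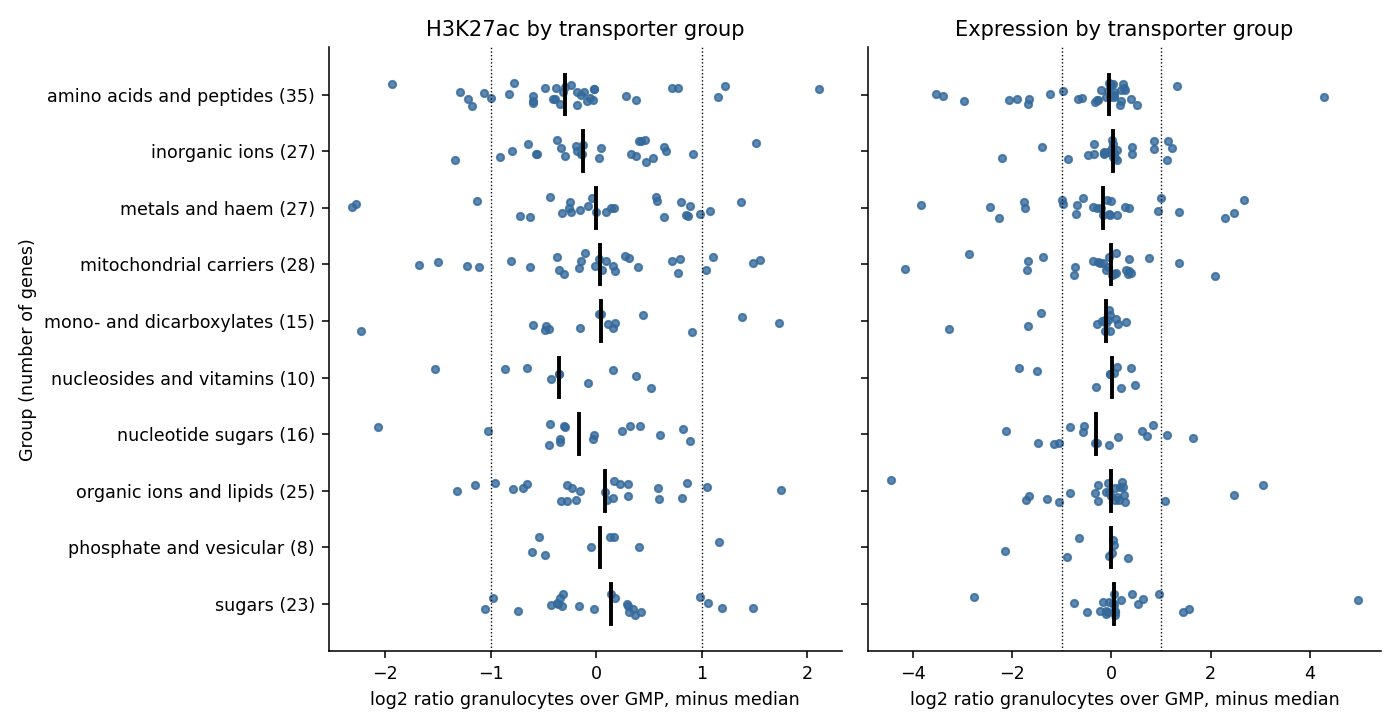
Log2 ratio of H3K27ac (left) and expression (right), granulocytes over GMP, minus the median of all genes, for the 214 members by transporter group; each point is 1 gene, black bars are group medians and dotted lines mark 2-fold. The group medians of H3K27ac lie between -0.35 and 0.14.

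Other transport genes were set beside the carriers. Of 16 V-ATPase subunits, which acidify organelles, 7 had higher and 0 lower expression in granulocytes than in GMP, with a median ratio of 0.95, where 12.2% of all genes were higher and 17.7% lower. In H3K27ac 1 of the 16 was higher and 0 lower, with a median of 0.39, against 7.58% and 7.72% of all genes. In expression 4 of 25 ABC transporters were higher and 6 lower, and of 26 P-type ATPases 3 were higher and 5 lower. In H3K27ac 2 of the ABC transporters were higher and 1 lower, and 5 of the P-type ATPases were higher and 1 lower.

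The earlier steps changed little. Between preGM and LSK no member reached 2-fold in H3K27ac or H3K4me1, where 0.198% of all genes were higher and 0.347% lower in H3K27ac. For H3K4me1 the background was 0.0099% and 0%. In expression Slc40a1 and Slco4a1 were higher in preGM and Slc35d3 lower, against 1.52% and 0.872% of all genes. Between GMP and preGM, H3K27ac was higher at 3 members and lower at 4, with 1.07% and 1.69% of all genes. Without subtracting the median of all genes, which was 0.42 on the log2 scale, the split was 17 higher and 1 lower, with 9.05% and 0.178% of all genes. With the subtraction, the 3 higher were Slc22a4, Slc7a6 and Slc16a1. In H3K4me1 no member differed 2-fold between GMP and preGM, against 0.0495% higher and 0.0099% lower. In expression 4 members were higher in GMP than in preGM and 7 lower, against 2.75% and 3.01%. Slc22a3, an organic cation carrier, was among the lower with 420.1, 530.4, 152 and 34.9 over the 4 stages.

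Over the whole path, H3K27ac was higher in granulocytes than in LSK at 17 members and lower at 17, against 9.4% and 6.92% of all genes. Without the subtraction the split was 50 and 1, with 27.7% and 0.693% of all genes. H3K4me1 was higher in granulocytes than in GMP at 2 members and lower at 20, with 0.872% and 8.05% of all genes; without the subtraction these were 14 and 7, with 5.32% and 2.09%. Against LSK they were 7 and 25, with 2.71% and 11.5%, and 26 and 13 without it, with 11% and 5.09%. With an added constant 4 times larger, the H3K4me1 counts of both directions were 0 in place of 22 against GMP and 1 in place of 32 against LSK. In expression 16 members were higher in granulocytes than in LSK and 28 lower, against 13.1% and 13.3%. GMP against LSK gave 20 higher and 6 lower, against 8.05% and 3.48%. These comparisons share their LSK and granulocyte values.

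PU.1 was deposited as bound, alone or with CEBPA, at 31.2% of the solute carrier enhancers and 28.3% of all, and CEBPA at 23.4% and 21.5%. How the authors set these classes is not given. At Slc39a13, a zinc carrier, mean PU.1 was 16.3 in KO preGM and 33.3 in wild type preGM. At Slc2a1 it was 15.9 in KO and 31.9 in wild type. After subtracting the median of all genes, -0.399, the ratios were -0.61 and -0.58, short of 2-fold. Without the subtraction both were close to 2-fold lower in KO. The 1 enhancer of Slc1a4, a neutral amino acid carrier, at chr11:20232694-20232924 (mm9), had a CEBPA signal of 6.298 in wild type preGM. Slc1a4 expression was 26.4, 26.8, 28.02 and 13.5 over the 4 stages, below 40 in each.

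Over the stages, PU.1 differed 2-fold at few members. In preGM against LSK 1 member was higher, Slc7a11, and 2 lower, against 0.495% and 0.208% of all genes; without the subtraction 8 were higher and 0 lower, with 2.79% and 0%. In GMP against LSK 4 were higher, Slc7a11, Slc25a44, Slc16a14 and Slc16a1, and 2 lower, against 1.68% and 0.475%, and 10 and 0 without the subtraction, with 3.68% and 0.158%. Between GMP and preGM there was none in either direction, with 0.475% and 0.168% of all genes.

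In KO preGM against wild type preGM, no member reached 2-fold in H3K27ac, H3K4me1 or expression. The background in expression was 0.277% higher and 0.406% lower, and in H3K27ac 0.0891% and 0.168%, and in H3K4me1 0% and 0.0099%, so fewer than 1 member in each direction would match it. With an added constant 4 times smaller, 2 members were higher and 5 lower in H3K27ac, with 1.33% and 1.6% of all genes. The expression ratios of members ran from -0.69 for Slc25a12 to 0.83 for Slc7a8. PU.1 was lower at Slc7a11, which exchanges cystine for glutamate, and higher at Slc2a4 and Slc22a23, against 0.386% lower and 0.396% higher. At the Slc7a11 enhancer, chr3:50186541-50186648 (mm9), PU.1 was 1.45 in KO preGM and 5.03 in wild type preGM, and 1.45 in LSK. Its expression was 34.99 in KO and 22.4 in wild type, both below 40. Without the subtraction, 0 members had higher PU.1 in KO and 8 lower, with 0.0396% and 3.39% of all genes, whose median was -0.399.

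**Figure D4:**
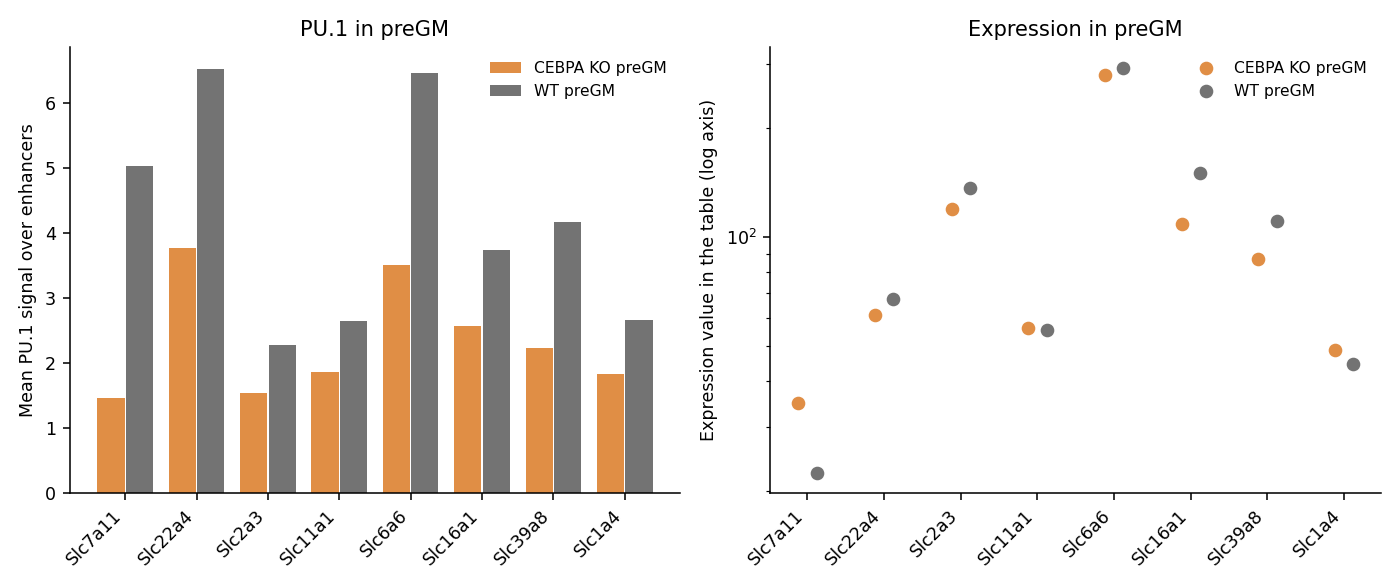
Mean PU.1 signal over enhancers (left, bars from 0) and expression values (right, log axis) in CEBPA KO preGM (orange) and wild type preGM (grey) for 8 members named in the text; each bar is a mean over a gene's enhancers and each point 1 deposited value, with no median subtracted. PU.1 at Slc7a11 is 1.45 in KO and 5.03 in wild type.

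By the deposited classes, the median PU.1 log2 ratio between KO and wild type preGM was -0.58 at the 98 solute carrier enhancers bound by both factors and -0.52 at all such enhancers. It was -0.41 and -0.37 at enhancers with PU.1 alone, -0.018 and 0.02 with CEBPA alone, and 0.199 and 0.17 with neither. From these ratios the median of all enhancers, -0.266, was subtracted. Before that, the median PU.1 signal was lower in KO than in wild type in each class. At solute carrier enhancers it was 0.775 in KO and 0.839 in wild type with neither factor, and 0.917 and 1.23 with CEBPA alone. The classes may rest on the same wild type PU.1 data, so the order is a description. The H3K27ac medians of solute carrier enhancers lay between -0.093 and 0.004 over the 4 classes.

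**Figure D5:**
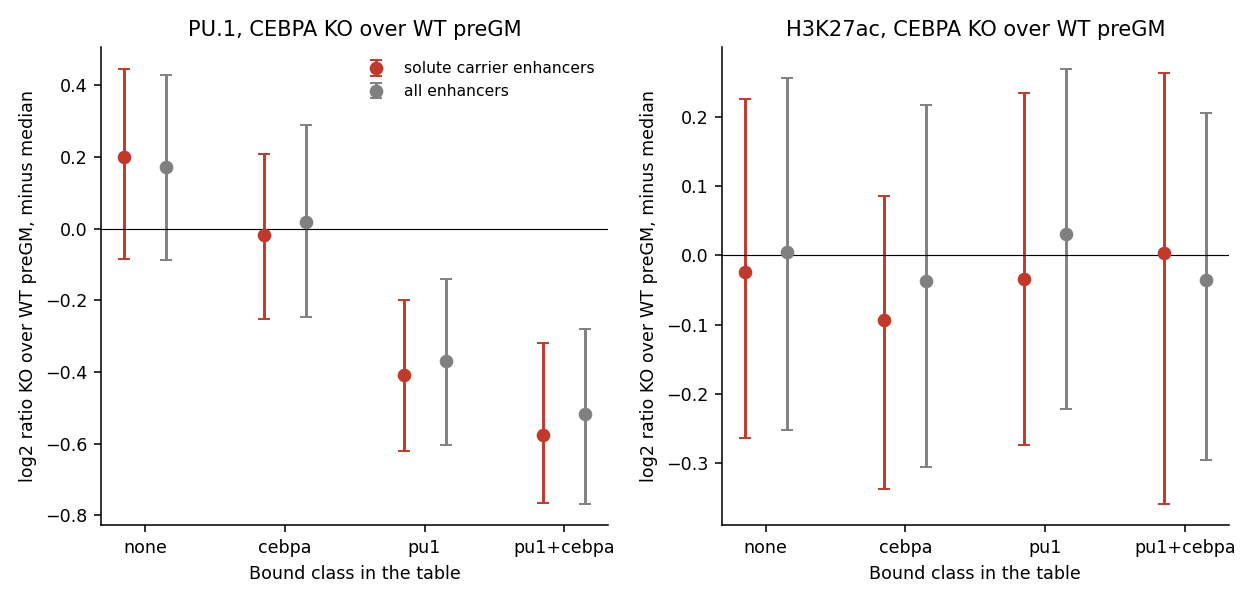
Median log2 ratio between CEBPA KO and wild type preGM, minus the median of all enhancers, for PU.1 (left) and H3K27ac (right) by deposited bound class, for solute carrier enhancers (red) and all enhancers (grey); bars span the quartiles over enhancers. The PU.1 medians are lowest where both factors are bound, -0.58 for solute carriers, and the H3K27ac medians stay near 0.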

How the data were processed

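The analysis used 1 deposited table of enhancers in build mm9, with an assigned gene per enhancer. Its 15 ChIP columns used here hold a signal that the authors made per group, for which the labels list 2 libraries. Their way of combining and scaling them is not stated in any source used here. Its 6 expression columns, as deposited, hold linear values of another kind whose unit is not stated, with no 0. Per the submitters' processing notes, RNA libraries went through STAR, featureCounts and DESeq2 and ChIP libraries through Bowtie2 and MACS2, with bedtools for each and no versions. No count was at hand, so no count test was run. Another 11 value columns were left out: 6 of an undescribed quantity and 5 with no listed sample. Depth per library is unknown, so no interval was computed, and with 1 deposited value per group no p-value or SD exists.

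With Python 3.11.15, pandas 2.3.3 and numpy 2.4.6, signals were averaged over the enhancers of a gene. Constants of 0.7 (H3K27ac), 2 (H3K4me1), 0.6 (PU.1) and 40 (expression), the 25th percentile of each assay rounded to 1 digit, were added before the log2 ratio, and the median over 10096 genes was subtracted. The threshold was 2-fold. The steps were tested on simulated data with planted changes larger than the threshold, which does not show how smaller changes are counted.

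The members, the transporter groups, the marker lists and the rule for naming genes were chosen with earlier results of these data known. The rule named, per comparison, up to 6 highest and 6 lowest members past 2-fold with at least median signal in the higher group, up to 8 members past 2-fold in both H3K27ac and expression, a fixed list of carriers, and the 5 members with the highest mean H3K27ac, PU.1 or CEBPA signal, a ranking used only to choose names. Further members, such as those named beside small counts and the full lists moving in both measures, were named after their values were seen. Promoters were to be chosen by their distance to an enhancer if the builds matched. They do not, so 3 were taken by symbol instead. Among the 18 genes moving in both measures, ordered by the size of the H3K27ac ratio, these are the first 2 higher and the first lower with a single RefSeq window. This rule was set after their values and motif matches had been seen. Of the 214 members, 168 had a window. In all 5 patterns were searched, of which 1, TTNCNNAA, came from a mistyped motif; all 5 are reported.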

Additional observations from a re-analysis of the deposited data

How the results depend on the processing

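No paired analysis was possible because the table's columns do not separate the libraries and carry no replicate number, and for the same reason no replicate could be left out. The counts of members past 2-fold depended on the added constant and on the threshold. Brackets give the shares of all genes higher and lower under the same setting, which moved with it too. With a constant 4 times smaller, H3K27ac gave 11 for preGM over LSK (0.951%, 3.61%) and 18 for GMP over preGM (2.15%, 6.32%). It gave 71 for granulocytes over LSK (13.2%, 17.5%) and 7 for KO over wild type preGM (1.33%, 1.6%). H3K4me1 gave 2 for GMP over preGM (0.882%, 0.188%) and 37 for granulocytes over GMP (3.58%, 13.6%). PU.1 gave 5 for preGM over LSK (0.842%, 1.6%) and 3 for GMP over preGM (1.33%, 0.485%). It gave 15 for GMP over LSK (2.87%, 2.01%) and 8 for KO over wild type (2.34%, 0.624%). Expression gave 5 for preGM over LSK (2.33%, 1.19%). With a constant 4 times larger, H3K27ac gave 1 for GMP over preGM (0.238%, 0.0099%). It gave 10 for granulocytes over GMP (1.54%, 2.22%) and 6 for granulocytes over LSK (3.76%, 0.178%). H3K4me1 gave 0 for granulocytes over GMP (0.0099%, 0%) and 1 for granulocytes over LSK (0.0198%, 0.277%). PU.1 gave 0 for preGM over LSK (0.139%, 0%), 1 for GMP over LSK (0.426%, 0.0495%) and 0 for KO over wild type (0.0099%, 0.139%). Expression gave 0 for preGM over LSK (0.574%, 0.436%) and 3 for GMP over preGM (1.41%, 1.28%). It gave 11 for GMP over LSK (4.69%, 1.64%) and 27 for granulocytes over LSK (8.73%, 8.22%). At a threshold of 1.5-fold, H3K27ac gave 25 for preGM over LSK (4.98%, 4.61%) and 39 for GMP over preGM (8.86%, 9.65%). It gave 84 for granulocytes over GMP (19.3%, 18.2%), 104 for granulocytes over LSK (23.8%, 24.5%) and 10 for KO over wild type (2.45%, 2.57%). H3K4me1 gave 3 for GMP over preGM (0.753%, 0.416%), 52 for granulocytes over GMP (7.57%, 17.5%) and 61 for granulocytes over LSK (9.74%, 19.4%). PU.1 gave 19 for preGM over LSK (3.66%, 3.77%) and 11 for GMP over preGM (2.87%, 2.36%). It gave 27 for GMP over LSK (6.89%, 4.65%) and 26 for KO over wild type (5.26%, 3.71%). Expression gave 26 for preGM over LSK (7.99%, 2.45%) and 34 for GMP over preGM (8.37%, 8.93%). It gave 53 for GMP over LSK (17.7%, 8.71%), 75 for granulocytes over LSK (20.2%, 21%) and 2 for KO over wild type (1.05%, 1.45%). With the highest enhancer of each gene, H3K27ac gave 3 for preGM over LSK (0.287%, 1.58%) and 15 for GMP over preGM (1.62%, 5.14%). It gave 63 for granulocytes over LSK (15.7%, 14%) and 2 for KO over wild type (0.228%, 0.693%). PU.1 gave 7 for preGM over LSK (2.28%, 0.555%), 4 for GMP over preGM (1.35%, 0.614%) and 17 for GMP over LSK (5.45%, 1.37%). The median CEBPA level of members was 0.743 in place of 0.554. Without subtracting the median, H3K27ac gave 18 for GMP over preGM (9.05%, 0.178%). PU.1 gave 8 for preGM over LSK (2.79%, 0%), 10 for GMP over LSK (3.68%, 0.158%) and 8 for KO over wild type (0.0396%, 3.39%). Genes at or above the median mean value are fewer by construction, and the brackets here are shares of these genes. Among them, H3K27ac gave 1 for GMP over preGM (0.594%, 0.931%) and 23 for granulocytes over GMP (9.35%, 12%). H3K4me1 gave 11 for granulocytes over GMP (0.258%, 7.21%) and 12 over LSK (0.376%, 9.55%). PU.1 gave 0 for preGM over LSK (0.535%, 0.0792%) and 0 for KO over wild type (0.0792%, 0.337%). Expression gave 1 for preGM over LSK (1.47%, 1.86%) and 16 for GMP over LSK (8.95%, 8.48%). Every other count under these settings, and each count from the mean of single enhancer ratios, was within 1.5 times its reported value. Of 648 recomputed values of 110 named ratios, 560 stayed past the threshold in the same direction, 87 kept the direction and fell short of it, 56 of these with the larger constant, and 1 turned: Slc31a2 in H3K4me1, granulocytes over LSK, was -0.43 with its highest enhancer. The cause was not tested. Values without a depth limit what can be said of any single gene with a low signal.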
